A study of Mus musculus with 20 samples.

Results

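A set of 10 genes of the vessel lining and the inner heart lining were examined, and 1 of them, Vwf, passed the test for a difference between the atria. The 10 genes are Vwf, Pecam1, Cdh5, Kdr, Tek, Tie1, Emcn, Nos3, Flt1 and Egfl7, taken as all probes that the platform annotation assigns to these symbols, which gives 21 of the 45281 probes of the array. The values come from Illumina bead arrays of total RNA from atrial appendages of outbred CD1 mice aged 12 weeks, with 5 arrays in each of 4 groups. LA wt and RA wt are the left and right appendages of 5 wild-type mice, and LA het and RA het are those of 5 littermates heterozygous at the locus under study. The labels do not say which left and right arrays come from the same mouse. The genotype labels were not checked against the level of the targeted gene.

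Endothelial cells line all blood vessels, and their endocardial relatives line the chambers of the heart. Flt1 and Kdr encode receptors for vascular endothelial growth factors, with Kdr carrying most of the signal for growth and Flt1 acting largely as a trap for the ligand. Tek encodes the angiopoietin receptor and Tie1 its partner receptor. Pecam1 and Cdh5 encode adhesion molecules of the cell junctions, Emcn a mucin of the cell surface found on veins, capillaries and endocardium, and Nos3 the endothelial nitric oxide synthase. Egfl7 encodes a matrix-bound factor secreted by endothelial cells. Vwf encodes von Willebrand factor, a clotting protein that endothelial cells store and release, that megakaryocytes also make, and that is unevenly distributed over vessel types.

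Transcription factors of the ETS family, which bind a GGAA core, drive many endothelial genes. Promoter sequences are shown for Emcn, Flt1 and Tek, 3 members with a promoter in the RefSeq table that had readings leaning to the right atrium without passing the test. They are the 250 bases before the transcript start that the table gives, read 5′ to 3′ on the gene's strand from RefSeq, build GRCm38.p6, with each GGAA or its reverse complement TTCC in capitals. In all 3 genes that start lies inside the gene's annotated bounds, so that the Flt1 window lies wholly, and the Emcn and Tek windows partly, within the gene.
Emcn promoter, chr3:137340828-137341077, + strand: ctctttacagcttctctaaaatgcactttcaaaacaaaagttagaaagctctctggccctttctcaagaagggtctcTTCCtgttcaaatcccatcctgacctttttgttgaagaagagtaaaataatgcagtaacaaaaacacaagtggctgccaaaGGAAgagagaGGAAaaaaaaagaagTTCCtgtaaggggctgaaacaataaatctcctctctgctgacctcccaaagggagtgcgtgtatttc
Flt1 promoter, chr5:147726012-147726261, - strand: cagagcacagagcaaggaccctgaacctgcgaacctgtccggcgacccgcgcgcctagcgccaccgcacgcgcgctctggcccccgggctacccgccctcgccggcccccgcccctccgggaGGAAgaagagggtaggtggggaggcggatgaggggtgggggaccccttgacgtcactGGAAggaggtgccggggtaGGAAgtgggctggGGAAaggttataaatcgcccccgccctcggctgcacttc
Tek promoter, chr4:94739039-94739288, + strand: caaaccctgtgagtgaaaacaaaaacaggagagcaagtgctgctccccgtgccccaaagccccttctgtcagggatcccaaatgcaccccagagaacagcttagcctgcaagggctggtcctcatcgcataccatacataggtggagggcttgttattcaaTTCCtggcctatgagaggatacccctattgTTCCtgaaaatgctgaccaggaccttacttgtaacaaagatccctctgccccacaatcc
The Emcn and Flt1 windows each hold 4 matches to GGAA on either strand, and the Tek window holds 2. The longer string AGGAAG, which contains GGAA and so overlaps those matches, occurs 2 times in Emcn, 2 times in Flt1 and 0 times in Tek, counting both strands. GGAA is present in 93.45% of the 32851 upstream windows of this length in the table and AGGAAG in 29.48%. Of the 10 members, 6 have a promoter in the table; Vwf, Pecam1, Cdh5 and Nos3 are named only. A match is a description of these letters and not a site or a cause.

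All 10 genes had at least 1 probe that was detected on 14 or more of the 20 arrays, with detection taken as a detection p under 0.05. Of the 21 probes, 17 were detected on at least 5 arrays and were tested, and 4 (a second probe each of Vwf, Kdr, Flt1 and Nos3) were detected on 0 arrays. The brightest tested probe stands for its gene. Kdr was dim, with signals between 12.1 and 34.9 and detection on 3 of 5 LA wt, 4 LA het, 5 RA wt and 2 RA het arrays. Over all arrays, detected probes numbered between 17316 and 19422, and having 5 arrays in a group limits how small a difference can be seen. RA het replicate 1, RA wt replicate 1 and RA het replicate 4 detected the fewest probes, 17316, 17662 and 17746, against 17968 or more on each of the others. These 3 arrays also lay at one end of the first principal component, which held 22.2% of the variance. Differences of the 10 genes that turn on them are given with and without them. As a check of the tissue, the summed signal of 7 atrial cardiomyocyte genes lay between 175086 and 209400 on every array. That of 4 ventricular genes ran from 3336 to 17518.4 on the left arrays and from 2426.7 to 66798.9 on the right. Ventricular Myl2 read 11228.1 on RA het replicate 1, 33896.9 on RA het replicate 4 and 698.2 on RA wt replicate 1. RA wt replicate 2, outside these 3, read 29382.7. Adipoq, a fat gene, peaked on LA het replicate 1 (8120.3) and RA het replicate 1 (4794.4). The part of such tissue in differences that turn on the 3 arrays was not tested. In such bulk samples, fewer endothelial cells and less RNA per cell cannot be told apart.

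Vwf was higher in the right atrium than in the left, in mice of both genotypes. The gene lies on chromosome 6 (125552948 to 125686679, GRCm38.p6). Its probe read 1879, 1305.8, 1687.3, 1413.8 and 1591.3 on the 5 LA wt arrays and 1981.3, 2030.1, 1641.2, 1964.5 and 1489.7 on the LA het arrays, in the authors' intensity units. On the right it read 3197.1, 2665.2, 2930.9, 2911.2 and 2648.5 on the RA wt arrays and 2616.6, 2808.7, 2630.5, 2161.6 and 3044.1 on the RA het arrays. Every right array stood above every left array: the highest left value was 2030.1 and the lowest right value 2161.6, both from heterozygous mice. The difference, left minus right on the log2 scale, was -0.87 in wild-type mice (SE 0.12, n = 5 per group, limma adjusted p = 0.000107), a 1.82-fold higher level on the right. In heterozygous mice it was -0.54 (SE 0.12, limma adjusted p = 0.0133), which is 1.45-fold, and over both genotypes -0.70 (SE 0.083, limma adjusted p = 8.64e-06), which is 1.63-fold with a 95% interval from 1.44 to 1.84. The difference between these 2 values, the interaction of side and genotype, did not pass the test, at 0.33 with a 95% interval from -0.02 to 0.67 (limma adjusted p = 0.999).

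**Figure D1:**
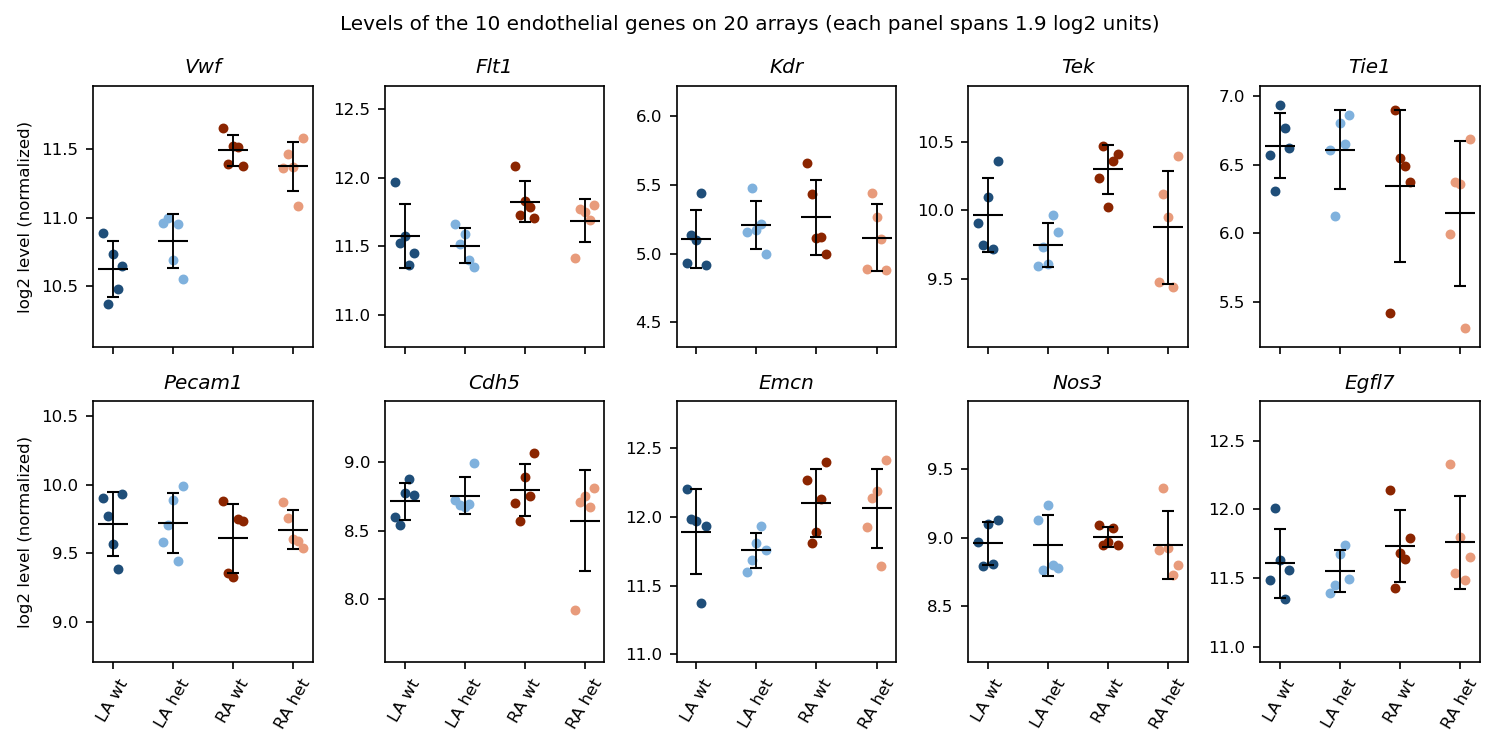
Normalized log2 level of each of the 10 genes on the 20 arrays, 1 panel per gene, with points for arrays and bars for the mean and SD of the 5 arrays of a group. The Vwf points of the right atrium lie above all those of the left, while in the other 9 panels left and right points overlap in each genotype.

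Vwf was thus 1 of 10 members called, that is past an adjusted p of 0.05 over all 20097 tested probes, in each of the comparisons of the sides. Over all tested probes, 3.28% were called between the sides in wild-type mice (1.72% as higher on the right), 2.61% in heterozygous mice (1.37%) and 7.35% over both genotypes (3.53%). Right arrays lay above left arrays without overlap for 2.38% of the tested probes in wild type, 1.95% in heterozygotes and 0.602% over both, and among the members for Vwf alone in each. In the other 9 genes the left and right arrays overlapped in each genotype. Median differences of the 10 genes were -0.15 in wild type, -0.06 in heterozygotes and -0.10 over both, beside 0.02, -0.00 and 0.01 over all 11154 named genes tested. The p-values treat the arrays as independent, although left and right arrays share mice.

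**Figure D2:**
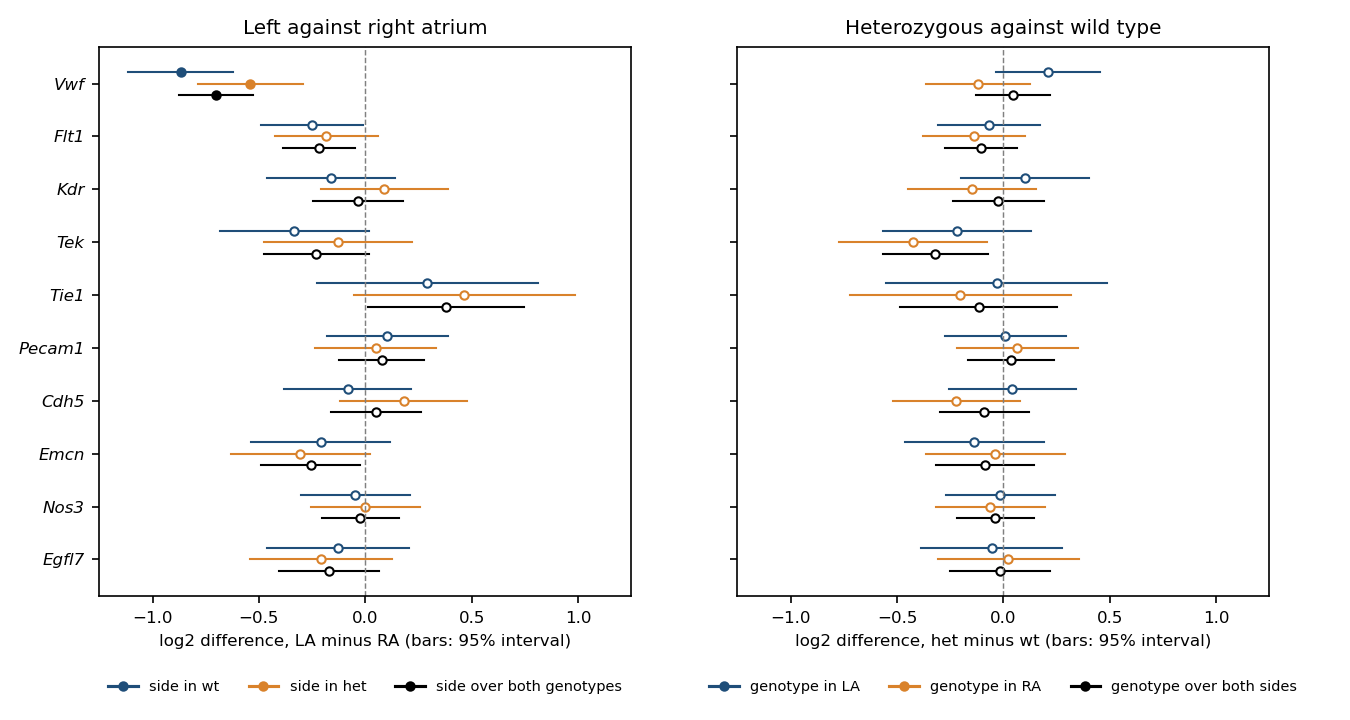
Log2 differences of the 10 genes between the atria (left panel, left minus right) and between the genotypes (right panel, heterozygous minus wild type), with bars for 95% intervals and filled points for an adjusted p under 0.05. Filled points belong to Vwf alone, in the 3 comparisons of the sides, and the genotype panel has none.

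Vwf also departed from the other 9 genes on the same arrays. When each gene was expressed as its deviation from its own mean over the 20 arrays, Vwf minus the mean of the other 9 ran from -0.67 to -0.23 in LA wt, from -0.51 to 0.03 in LA het, from 0.16 to 0.44 in RA wt and from 0.24 to 0.44 in RA het. The right arrays lay above all left arrays here too, in values that hold the same Vwf readings and are no separate support. The mean deviation of the other 9 spanned from -0.12 to 0.06 in LA wt, from -0.11 to 0.03 in LA het, from 0.01 to 0.14 in RA wt and from -0.28 to 0.11 in RA het. Its lowest values came from RA het replicates 1 and 4, 2 of the 3 arrays with few detected probes. These relative levels are a description and were given no test.

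**Figure D3:**
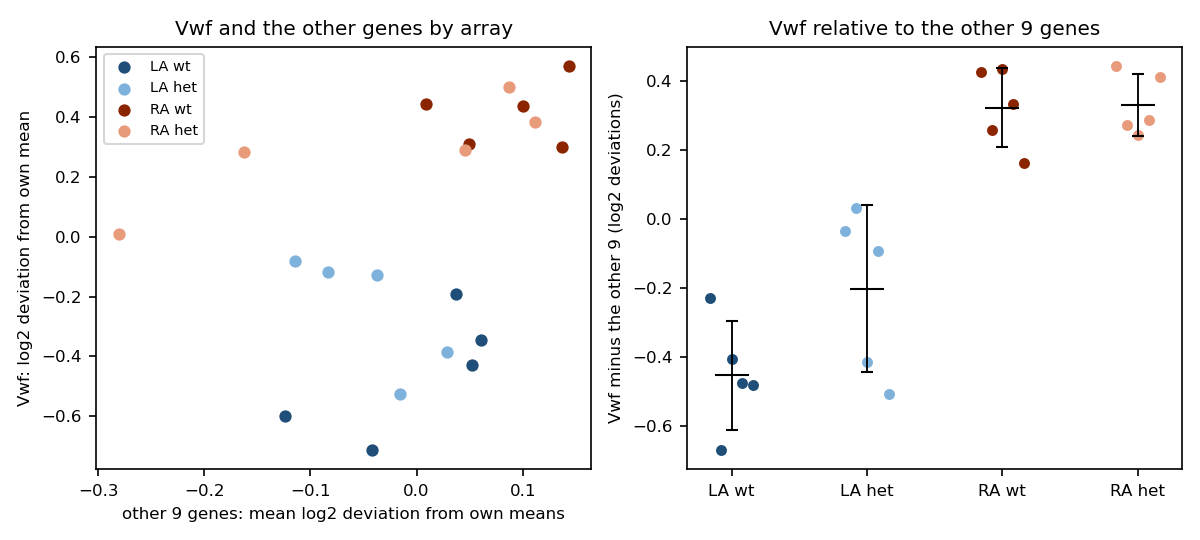
Left panel, the deviation of Vwf from its own mean on each array against the mean deviation of the other 9 genes, both in log2 units; right panel, the difference of these by group, with bars for the mean and SD of 5 arrays. Right arrays lie above left arrays, with differences of 0.16 to 0.44 on the right and -0.67 to 0.03 on the left.

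Markers of other cells were examined beside Vwf. Of 8 platelet and megakaryocyte genes with a probe, 5 were tested and 1, Pf4, a platelet chemokine gene, was called over both genotypes, at -0.44 (SE 0.089, limma adjusted p = 0.00282), while Gp9, Itga2b, Itgb3 and Treml1 had limma adjusted p from 0.625 to 0.956. The summed platelet signal ran from 1543.7 to 1931.5 in LA wt, 1220.5 to 1809.3 in LA het, 1970.9 to 2425.7 in RA wt and 1870 to 2829.7 in RA het. Pf4 was the only called gene in that sum, in which Gp9 stayed under 30 units on every array and Gp5 was detected on 0 arrays. The share of each gene in the sum is not given. Of 9 macrophage genes, 8 were called higher on the right and 1 on the left over both genotypes, 7 and 0 in wild type, and 1 and 1 in heterozygotes. Over all tested probes, 7.35%, 3.28% and 2.61% were called in these comparisons. The summed signal of the macrophage genes ran from 5848.8 to 8842.5 on the left arrays and from 7667.6 to 12288.5 on the right. Of 3 tested ventricular genes, Myl2 alone was called, higher on the right, with a log2 difference of -4.42 over both genotypes (SE 0.84, limma adjusted p = 0.00156). Myl3 stood at -0.24 (limma adjusted p = 0.878) and Hey2 at 0.04 (limma adjusted p = 0.953). Myl2 was uneven, with signals from 6.9 to 3999.7 on the left arrays and from 402 to 33896.9 on the right. When Myl2, Adipoq and Upk3b (markers of ventricle, fat and epicardium) entered the fit as covariates, the Vwf difference in heterozygous mice was -0.63 and missed the threshold (limma adjusted p = 0.0645), and over both genotypes it was -0.81 and passed it (limma adjusted p = 0.0026). The part of platelet or macrophage RNA in the Vwf difference was not tested.

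Of proteins that handle von Willebrand factor, namely its clotting partner, its cleaving enzyme and the machinery of its storage granules, 12 genes were tested beside the members. Over both genotypes 1 was higher on the left and none on the right: Rab3d, a small GTPase of secretory granules, at 0.36 (SE 0.075, limma adjusted p = 0.00329). Stxbp5, a negative regulator of granule release, stood at -0.20 (limma adjusted p = 0.0945) and Furin, the protease that cleaves the precursor, at -0.23 (limma adjusted p = 0.133). The median of the list was -0.07, and the share called over all tested probes was 7.35%.

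Among the growth factor receptors, Flt1 leaned to the right atrium without passing the test. It read 3986.9, 2927.2, 3030.2, 2618.5 and 2782.1 in LA wt and 3229.5, 2919.9, 3067.7, 2687 and 2600.3 in LA het. On the right it read 4324.3, 3378.9, 3623, 3520.1 and 3323.4 in RA wt and 2718.8, 3482.1, 3438.2, 3296.5 and 3559 in RA het. LA wt replicate 1 was the high left array and RA het replicate 1 the low right array, and apart from these 2 the right values were all above the left ones. The difference over both genotypes was -0.22 (SE 0.081, unadjusted p = 0.0148 and limma adjusted p = 0.133). Without LA wt replicate 1 it was -0.27 and was called (limma adjusted p = 0.0286), and without the 3 arrays of fewest detected probes it was -0.23 and was not (limma adjusted p = 0.0908). Kdr differed by -0.04 with a 95% interval from -0.25 to 0.18, on a probe near background, where differences on this scale are understated.

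Of 12 tested ligands and co-receptors around these receptors, 3 were called higher on the left and 1 on the right over both genotypes, where 7.35% of all tested probes were called. All 4 calls were lost with the 3 covariates, with limma adjusted p from 0.161 for Sema3a to 0.774 for Angpt1. Sema3a, a secreted guidance factor, differed by 0.70 (SE 0.11, limma adjusted p = 0.000333), Angpt1, the activating ligand of the Tek receptor, by 0.62 (SE 0.15, limma adjusted p = 0.0125) and Nrp1, a co-receptor for semaphorins and VEGF, by 0.37 (SE 0.079, limma adjusted p = 0.00411). Vegfa, the main ligand of Kdr and Flt1, was higher on the right, at -0.30 (SE 0.08, limma adjusted p = 0.0222). Angpt1 signals ran from 381.8 to 751.3 in LA wt and from 573.5 to 897.9 in LA het, and from 304.1 to 506.2 in RA wt and 233.7 to 516.1 in RA het. The call of Angpt1 was lost without the 3 arrays of fewest detected probes (0.50, limma adjusted p = 0.0527) and that of Nrp1 when the probes of a gene were averaged (0.26, limma adjusted p = 0.187). Of 8 tested signalling genes downstream of these receptors, 1 was called, Dok2, an adaptor of the Tek receptor, at -0.47 (limma adjusted p = 0.0408), and it was called in 16 of 35 other settings.

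Tek leaned the same way as Flt1 and was also the member with the largest genotype difference. Its probe read 943.8, 844.2, 1080.6, 828.8 and 1301 in LA wt and 757.4, 837.6, 764.6, 984.2 and 900.7 in LA het. In the right atrium it read 1187.8, 1404.9, 1026.2, 1297.5 and 1347.8 in RA wt and 698.2, 1096.1, 974.2, 679.1 and 1332.1 in RA het. RA het was spread widely, with its lowest values on replicates 4 and 1, and it overlapped every other group. Between the sides Tek differed by -0.23 over both genotypes (SE 0.12, limma adjusted p = 0.331). Without the 3 arrays of fewest detected probes this was -0.38 (SE 0.10, limma adjusted p = 0.0318), so the call of Tek rests on whether those arrays are used. Between the genotypes it was -0.42 in the right atrium (SE 0.17, unadjusted p = 0.0196, limma adjusted p = 0.83), -0.22 in the left (limma adjusted p = 1.00) and -0.32 over both sides (unadjusted p = 0.0132, limma adjusted p = 0.633). Without the 3 arrays the right atrial difference was -0.16 (limma adjusted p = 0.998).

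Tie1 was low on the arrays with few detected probes. It read 79.4, 63.3, 106.4, 93.1 and 82.4 in LA wt, 81.5, 54.2, 95.6, 84.8 and 100.2 in LA het, 27, 103.6, 78, 74.1 and 67.1 in RA wt and 48, 67, 66.3, 23.8 and 87.1 in RA het. Its 3 lowest values, 23.8, 27 and 48, fell on those 3 arrays, all of the right atrium. The difference over both genotypes was 0.38 (SE 0.18, unadjusted p = 0.0442, limma adjusted p = 0.267) with all arrays and 0.10 (SE 0.12, limma adjusted p = 0.716) without the 3. Vwf differed by -0.73 without them (limma adjusted p = 2.46e-05), close to its value with them.

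**Figure D4:**
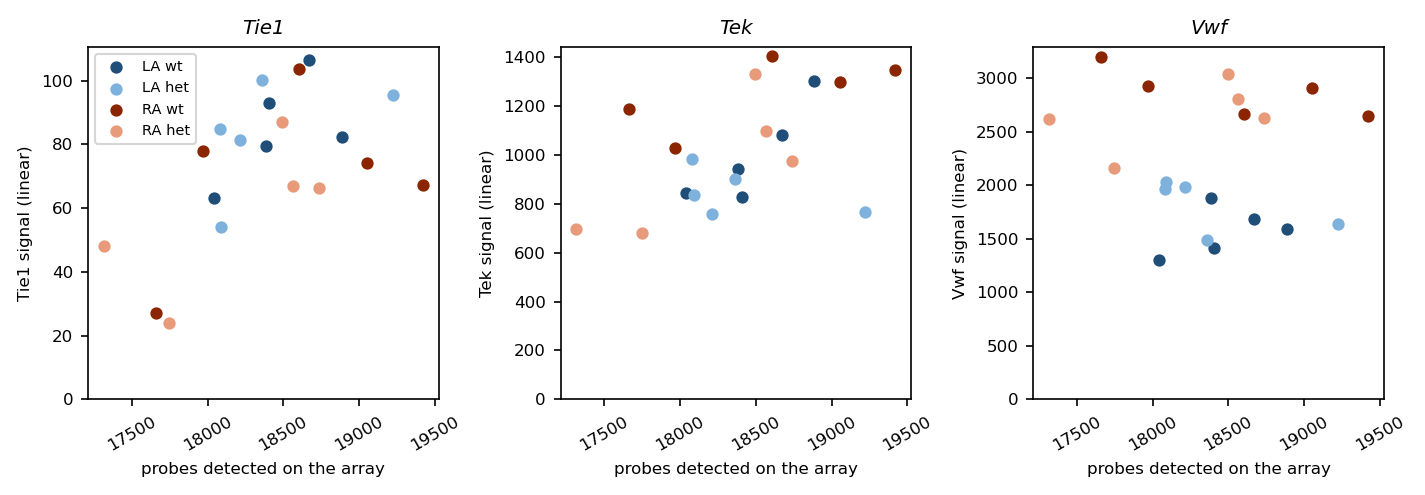
Signal of Tie1, Tek and Vwf in the authors' linear units against the number of probes detected on each array, coloured by group. The 3 arrays with 17746 or fewer detected probes hold the 3 lowest Tie1 signals and the 2 lowest Tek signals (698.2 and 679.1), while the Vwf signals of these arrays (2616.6, 3197.1 and 2161.6) stay above those of all left arrays.

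None of the junction and surface genes passed the test between the sides. Emcn, which had the largest difference of the 3, read 4695.1, 4043.6, 3999.7, 2638.1 and 3904.2 in LA wt and 3083.4, 3278.9, 3574.5, 3908.4 and 3445.9 in LA het. The right arrays read 4924.9, 3581.3, 3792.9, 4473.5 and 5398.6 in RA wt and 3883.6, 4487.6, 4662.2, 3190.6 and 5441.3 in RA het. The groups overlapped, with the highest readings, 5398.6 and 5441.3, on the right and the lowest, 2638.1, on LA wt replicate 4. Emcn differed by -0.26 between the sides over both genotypes (SE 0.11, unadjusted p = 0.0309, limma adjusted p = 0.215), and by -0.33 without the 3 arrays of fewest detected probes (limma adjusted p = 0.0842). Pecam1 differed by 0.08 with a 95% interval from -0.12 to 0.28 and Cdh5 by 0.05 with an interval from -0.16 to 0.26. Cdh5 ranged from 357.8 to 519.1 on 19 arrays and read 227 on RA het replicate 1, and its difference was -0.05 without the 3 arrays.

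Probes of 1 gene did not always give the same difference. The second bright probe of Pecam1, ILMN_2700982, read as low as 232.4 and 298.6 on RA het replicates 4 and 1 and 317 on RA wt replicate 1, again the 3 arrays with few detected probes. Its side difference in heterozygous mice was 0.46, against 0.05 for the probe that stands for the gene, and its right atrial genotype difference -0.44 against 0.06; neither was called. Without those arrays the values of this probe were -0.02 and -0.18. The 3 Egfl7 probes gave side differences over both genotypes between -0.18 and -0.04, the 3 tested Nos3 probes between -0.03 and 0.04, and the 2 Cdh5 probes 0.05 and 0.20. No second probe of any member was called in any of the 7 comparisons.

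Nos3 and Egfl7 did not pass the test in any comparison. Nos3 read between 408.1 and 642 over all arrays and differed by -0.02 between the sides over both genotypes, with a 95% interval from -0.21 to 0.16. Egfl7 read between 2588.4 and 5117.6 and differed by -0.17 (95% interval from -0.40 to 0.07). Its highest readings, 5117.6 and 4495.4, fell on RA het replicate 1 and RA wt replicate 1. Without the 3 arrays of fewest detected probes it differed by -0.07 (limma adjusted p = 0.753). Around Nos3, of 8 tested genes of nitric oxide signalling 2 were higher on the left and 1 on the right over both genotypes. The share called over all tested probes was 7.35%. Cav1, the caveolae protein that binds and restrains the synthase, differed by 0.49 (SE 0.06, limma adjusted p = 1.2e-05) and Gucy1a1, a subunit of the nitric oxide receptor, by 0.62 (SE 0.082, limma adjusted p = 3.01e-05). Ddah1, which degrades an inhibitor of the synthase, was higher on the right, at -0.84 (SE 0.13, limma adjusted p = 0.000149). None of these 3 genes is restricted to endothelium.

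No difference of the 10 genes between heterozygous and wild-type mice passed the test. By limma, 0 of 10 were called in the left atrium, in the right atrium, over both sides or in the interaction, and at an unadjusted p under 0.05 there were 0 in the left atrium, 1 in the right (Tek), 1 over both sides (Tek) and 0 in the interaction. Over all tested probes, 0.00498% were called in the left atrium, 0.00995% in the right, 0.00995% over both sides and 0.00995% in the interaction. The differences of the 10 genes ran from -0.22 to 0.21 in the left atrium, with 6 of 10 negative, and from -0.42 to 0.06 in the right, with 8 of 10 negative. Their 95% intervals reached from -0.57 to 0.49 on the left and from -0.77 to 0.36 on the right. Over all named genes tested, 50.27% of the differences were negative in the left atrium and 46.74% in the right. The right atrial count turned on the arrays of fewest detected probes. Without those arrays only Tek (-0.16), Tie1 (-0.11) and Cdh5 (-0.06) stayed negative there. The other members were then positive, from 0.01 for Flt1 to 0.19 for Emcn. In each of the other endothelial lists described here, 0 genes were called between the genotypes or in the interaction.

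Beyond the 10 genes, 24 other genes found throughout the endothelium were tested. Over both genotypes 3 were higher on the left and 3 on the right, with a list median of -0.03 beside 0.01 over all genes. The share called over all tested probes was 7.35%. Cav1 at 0.49 and Cd34, a sialomucin also present on other cells, at 0.49 (SE 0.097, limma adjusted p = 0.00217) were higher on the left, as was Thbd (thrombomodulin), at 0.37 (SE 0.087, limma adjusted p = 0.00926), which was named after its value was seen. On the right stood Eng, a co-receptor for TGF-beta family ligands, at -0.57 (SE 0.075, limma adjusted p = 2.8e-05), Adgrl4, an adhesion receptor, at -0.45 (SE 0.086, limma adjusted p = 0.00159) and Mcam, an adhesion molecule, at -0.42 (SE 0.091, limma adjusted p = 0.00501). Eng read from 1721.3 to 2553.2 on the left arrays and from 2368.7 to 3424.8 on the right. Of the 29 genes on that list, Ecscr, S1pr1 and Cyyr1 were detected on 0 arrays.

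**Figure D5:**
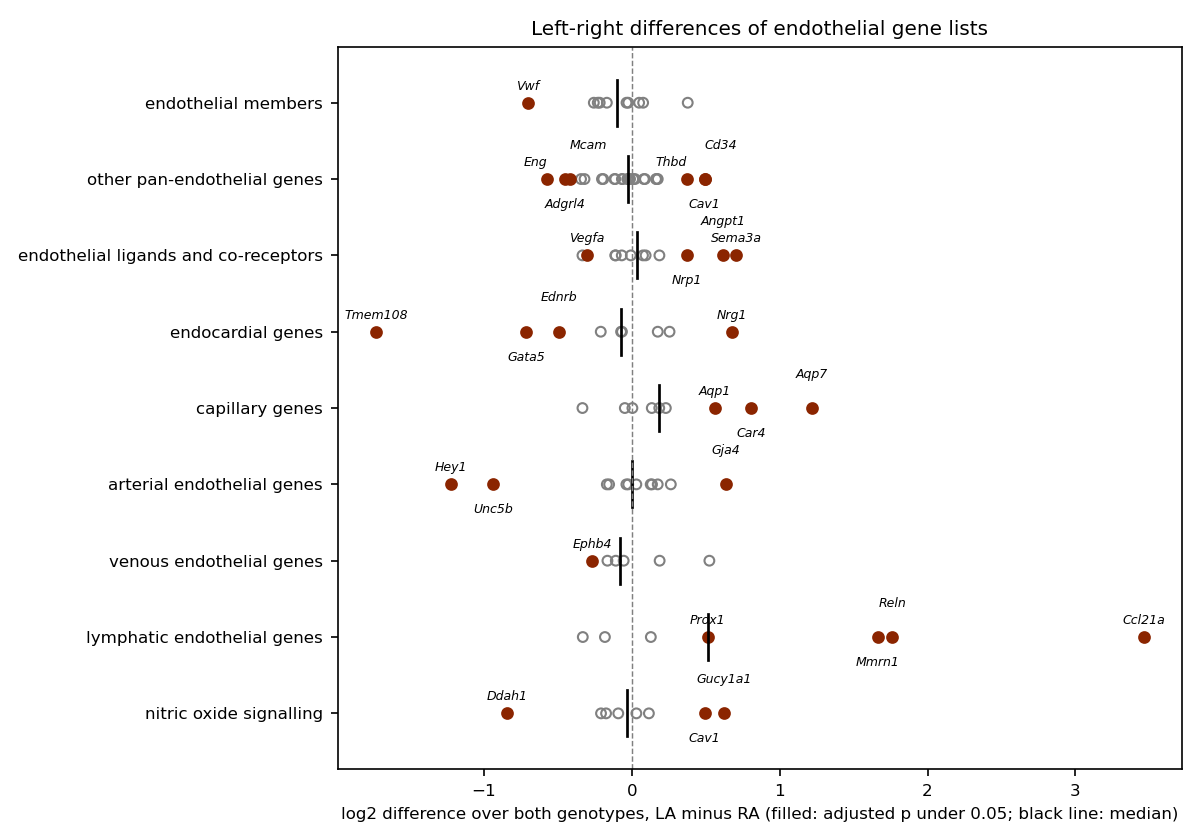
Log2 differences between the atria over both genotypes, left minus right, for the tested genes of 9 lists, with filled points for an adjusted p under 0.05, open points for the others and a black line at the median of each list. The called capillary and lymphatic genes (3 and 4) all lie at positive values, higher in the left atrium, and 5 lists have called genes in both directions. These counts include lymphatic Mmrn1 and endocardial Nrg1 and Gata5, which entered the test through a single atrium. Over all tested probes, 7.35% were called.

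Of 9 capillary genes, 3 were called higher on the left and none on the right over both genotypes, with a list median of 0.19, where 7.35% of all tested probes were called. Aqp1, a water channel, differed by 0.56 (SE 0.079, limma adjusted p = 6.23e-05), with readings from 5907.9 to 9548.2 on the left and from 4299.5 to 5595.4 on the right. Car4, a carbonic anhydrase of capillary membranes, differed by 0.80 (SE 0.094, limma adjusted p = 7.15e-06) and Aqp7, a glycerol channel also made by fat cells, by 1.22 (SE 0.18, limma adjusted p = 0.000124). Both were dim, being detected on 16 of 20 arrays, and over the other settings their differences ran from 0.47 to 1.20 and from 0.76 to 1.63. Summed adipocyte signal ran from 185.4 to 954.4 in LA wt, 345.3 to 11294.3 in LA het, 532.4 to 5412.7 in RA wt and 678.7 to 8245.1 in RA het, and its part in the Aqp7 difference was not tested.

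Of 12 arterial genes, 2 were higher on the right and 1 on the left over both genotypes. The share called over all tested probes was 7.35%. Hey1, a target of Notch signalling that atrial muscle also expresses, differed by -1.22 (SE 0.08, limma adjusted p = 1.93e-09), with readings from 496.9 to 775.9 on the left and from 1176.2 to 1676.1 on the right. Unc5b, a netrin receptor, differed by -0.94 (SE 0.11, limma adjusted p = 4.76e-06), and Gja4, a connexin of arterial endothelium, by 0.64 (SE 0.12, limma adjusted p = 0.0019) in the other direction. The median of the arterial list was 0.00. Of 6 venous genes, 1 was called, Ephb4, a receptor that marks veins, at -0.27 (SE 0.058, limma adjusted p = 0.00478).

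Of 9 tested endocardial genes, 3 were called higher on the right and 1 on the left over both genotypes. The share called over all tested probes was 7.35%. Tmem108, a membrane protein gene, had the largest difference, -1.73 (SE 0.084, limma adjusted p = 2.38e-11), with readings from 308.5 to 528.3 on the left and from 1072 to 1546.5 on the right. Ednrb, an endothelin receptor, differed by -0.49 (SE 0.11, limma adjusted p = 0.00838) and was detected on all 20 arrays. The other called genes, Nrg1 and Gata5, were near background on one side and entered the test through the other, so that a difference was to be seen by the filter alone and no p is given. Nrg1, a growth factor from endocardium to muscle, was detected on 9 left and 3 right arrays, with median readings of 33.4 in LA wt, 26.5 in LA het, 8.4 in RA wt and 9.2 in RA het. Gata5, an endocardial transcription factor, was detected on 1 of the 10 left arrays and on all 10 right arrays, with readings up to 23.2 and 46.4. Of 7 lymphatic genes, 4 were higher on the left and none on the right over both genotypes. The differences of these 4 ran from 0.51 for Prox1, the master regulator of lymphatic identity, to 1.76 for Reln and 3.46 for Ccl21a. Ccl21a is a chemokine gene whose probes may also read near-identical copies. Mmrn1, the other of the 4, was detected on all 10 left arrays and on 1 array each of RA wt and RA het, and so entered the test through the left atrium.

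Some of these list calls did not hold in every setting. With Myl2, Adipoq and Upk3b in the fit, the calls over both genotypes of Adgrl4, Angpt1, Ddah1, Dok2, Ednrb, Ephb4, Gata5, Nrg1, Nrp1, Pf4, Rab3d, Sema3a and Vegfa, and of the macrophage genes C1qb, Cd163 and Cx3cr1, were lost, with limma adjusted p from 0.0904 for Cx3cr1 to 0.962 for Dok2. Without the 4 arrays of high Ucp1 signal, a brown fat gene, those of Angpt1, Dok2, Ednrb, Ephb4, Nrg1, Rab3d and Vegfa were lost, with limma adjusted p from 0.057 to 0.11. The call of Prox1 was lost when the probes of a gene were averaged (limma adjusted p = 0.234). Thbd was not refitted under other settings, and neither, over both genotypes, were Mcam and the macrophage genes Adgre1, C1qa, C1qc, Csf1r and Lyz2.

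Across the 20 arrays the 10 genes did not move as one block. Over their 45 pairs, Pearson's r of the log2 levels ran from -0.53 to 0.68 with a median of 0.11, and 28 pairs were positive. The closest pairs were Vwf and Flt1 (r = 0.68), Tek and Emcn (0.63), Emcn and Flt1 (0.59) and Vwf and Emcn (0.56). With the group means taken out these were 0.57, 0.59, 0.43 and 0.47. The arrays share mice in an unknown order and differ in probes detected, and the correlations are given as a description over 20 arrays.

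The genes most like each member over the 20 arrays were found among all named tested genes. Vwf ran most like Arpp21 (r = 0.93), Csrp2 (0.93) and Hey1 (0.92), and with the group means taken out these fell to 0.50, 0.68 and 0.34. Tie1 ran most like Ptgfrn (0.95), Capn7 (0.93) and Eif3b (0.93), with values of 0.91 or more when the group means were taken out. Tek ran most like Timp3 (0.86), Flt1 most like Zfp36l1 (0.87), Emcn most like Rnf145 (0.83) and Egfl7 most like Mis18a (0.85). Spearman's rho of these pairs, in the same order, was 0.90, 0.84, 0.82 and 0.71. Cdh5 ran most like Copa, with Pearson's r at 0.92 and Spearman's rho at 0.72. For Pecam1, Nos3 and Kdr the closest genes were Wdr90 (0.76), Men1 (0.72) and 4930528A17Rik (0.68), with Spearman's rho at 0.66, 0.58 and 0.58.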

How the data were processed

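RNA of 20 atrial samples was measured on Illumina bead arrays. Per the labels' protocols, RNA was column-purified, checked on a Bioanalyser and made into biotin-labelled cRNA. The deposited intensities are linear and already background-subtracted and quantile-normalized: from 33.7% to 33.9% of the values on an array are negative, and after sorting the arrays match to within 1.8 units. In the deposited tables the detection p-value is stored as 1 minus p and was turned around. The software and methods behind these steps were not given in the sources used here.

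Values were processed in R 4.3.3 with limma 3.58.1 by neqc (normexp from the detection p-values, offset 16, quantile, log2), although already corrected; the closing section gives results without it. The offset lowers log2 differences of dim probes. Probes detected on at least 5 arrays were tested (20097, for 11154 named genes). One mean per group was fitted over the 20 arrays (lmFit, eBayes), 7 contrasts were drawn, and p-values were adjusted by Benjamini-Hochberg over all tested probes of a contrast. Self-tests on simulated data with known changes were run.

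Gene symbols came from the platform annotation (34885 probes with 1 symbol, 18 with several, 10378 with none), updated through Entrez IDs to RefSeq GRCm38.p6, which also gives positions and promoters. The members and lists were chosen with earlier results of these data known. Named genes are the members with all their probes, up to 4 called and 2 uncalled genes of each list in each contrast, of which a part is printed, and the 3 genes most like each member. Replicate numbers were not taken as pairs. In their deviations from group means, same-numbered left and right arrays correlated between -0.42 and 0.35 in wild type and between -0.30 and 0.12 in heterozygotes. Such weak correlations cannot show whether these arrays share a mouse. The targeted gene is not reported here. Alternatives covered the background correction, normalization, probe filter, probes per gene, variance model, arrays fitted, covariates and each array left out.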

Additional observations from a re-analysis of the deposited data

Results flagged for a closer look

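In 5 of 68 sets of 5 arrays, 1 array lay far from the other 4 of its group for a member's probe, judged by its gap to the nearest array over the group's range, against a critical value of 0.71. Chance alone flags about 1 in 20 such sets. For Cdh5, LA het replicate 5 read 494.7 with the next array at 407 (ratio 0.836), and RA het replicate 1 read 227 with the next at 393.2 (ratio 0.845). Flt1 was low on the same RA het replicate 1 (ratio 0.715), while the second Egfl7 probe was high on it (1257.3, ratio 0.762). The second Pecam1 probe was low on RA wt replicate 1 (317, ratio 0.741). Of these 5 readings, 4 fell on 2 of the 3 arrays with the fewest detected probes. The part of array quality, or of ventricular and fat tissue, in them was not tested.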

How the results depend on the processing

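Results were recomputed under 36 other settings. In the comparisons of the sides, Vwf kept its direction and its call in 105 of 107 values. In heterozygous mice the number of members called fell from 1 to 0 when only the groups compared were fitted (Vwf -0.54, limma adjusted p = 0.0635) and with 3 marker genes (Myl2, Adipoq, Upk3b) as covariates (Vwf -0.63, adjusted p = 0.0645). Over both genotypes it rose from 1 to 2 with array weights (Flt1 -0.22, adjusted p = 0.0458), without LA wt replicate 1 (Flt1 -0.27, adjusted p = 0.0286) and without the 3 arrays of fewest detected probes (Tek -0.38, adjusted p = 0.0318), the last setting being chosen after seeing the data. The cause was not tested. With single arrays left out, the count ran from 1 to 2 over both genotypes and stayed at 1 within each genotype. For the other 9 members, 3 of 2234 values were called and 101 changed sign, none of them a called value. Between the genotypes and in the interaction 0 of 1416 values were called. With the replicate number as a block, fixed or random (correlation 0.019), the side counts were 1 and the genotype counts 0, as without the block. Over all probes, calls between the sides over both genotypes ran from 489 with the covariates to 1981 with array weights, against 1478; in wild type from 351 to 1001 against 660, and in heterozygotes from 207 to 777 against 524. Genotype calls ran from 0 to 5 in the left atrium and 0 to 12 over both sides. Dim probes such as Kdr, detected on 14 arrays, limit what can be seen.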
